A study of Mus musculus with 12 samples.

Results

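The response of mouse CD4 T cells to linoleic acid was set against that of CD8 T cells, gene by gene, as a difference of effects. For each gene this was the log2 change with linoleic acid in CD4 T cells minus the log2 change in CD8 T cells, so a positive value means that the CD4 change lay above the CD8 change. All 12 of the 12 arrays of the series entered it. The labels describe 4 groups of 3 arrays: control and linoleic acid arrays of CD4 T cells, and control and linoleic acid arrays of CD8 T cells. Unsorted mouse spleen cells were cultured for 24 h, with linoleic acid at 50 µM in the treated groups and with none in the controls, and the T cells were purified by sorting only afterwards, so the fatty acid also reached the other spleen cells. No label used here names a strain, an age or the number of animals. The stated aim of the experiment was to look for a difference between the responses of these cell types. Array titles carry a number from 1 to 3, whose meaning no label states, and the difference was taken for each number as well as over the group means.

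CD4 T cells are the helper arm of T cell immunity and CD8 T cells the cytotoxic arm. Linoleic acid is a polyunsaturated fatty acid of the diet. A cell that takes it up activates it to a CoA ester, stores it in lipid droplets or passes it through the carnitine shuttle into mitochondria, where beta-oxidation feeds the respiratory chain. Fatty acids are also ligands of the PPAR nuclear receptors, and sterol and fatty acid synthesis are under the SREBP factors, while LXR receptors govern sterol efflux.

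Of 22180 genes with a probe set of their own, 14323 had a mean above log2 4.28 and were tested. Array medians ran from 4.66 to 4.80 and correlations between arrays from 0.946 to 0.984. The co-receptors matched the sort named in the labels: Cd4 lay between 10.77 and 11.19 in the 6 CD4 arrays and between 5.12 and 6.48 in the 6 CD8 arrays, and Cd8a between 5.01 and 6.82 and between 10.98 and 11.29 respectively. Transcripts of other cells were present and differed by number. The mean level of 13 measured B cell markers was 6.65 to 7.13 in the 4 arrays of number 1 and 7.86 to 8.48 in the other 8 arrays. The 1447 olfactory and vomeronasal receptor genes, whose known place is the sensory epithelium and which serve here as a gauge of background, had array means of 2.99 to 3.46.

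No gene passed the test of the difference in the model without a block for the array number. In limma's moderated test over all 14323 genes, 0 (0%) had a Benjamini-Hochberg adjusted p under 0.05, and the smallest adjusted p was 0.953. At an unadjusted p under 0.05 there were 336 genes (2.35%), 133 (0.929%) with the CD4 effect above the CD8 effect and 203 (1.42%) with it below. This is less than the share of 0.05 that uniform p-values would give. The model holds no block for the array number, so any spread shared by arrays of a number stays in its standard errors and p-values. Counts with a block are given in the section on processing choices. The differences were small: 437 genes (3.05%) exceeded 0.5 on the log2 scale in size and 1 (0.00698%) exceeded 1. Their 5th and 95th percentiles were -0.35 and 0.40. The median standard error was 0.21 and the median 95% interval, not adjusted for the number of genes, reached 0.45 to either side. With 3 arrays a group, a difference within that margin could not be told from 0 for a typical gene. Larger differences also went uncalled after adjustment, so the test does not exclude them.

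Cpt1a, which encodes the carnitine palmitoyltransferase that commits long-chain fatty acids to mitochondrial oxidation, had the largest CD4 effect of the 14323 genes tested. Its log2 intensity was 6.99, 6.40 and 6.62 in the CD4 control arrays and 8.34, 7.96 and 7.71 in the CD4 linoleic acid arrays, in the order of the numbers. In CD8 T cells it was 6.88, 6.88 and 6.69 without linoleic acid and 8.19, 7.80 and 7.17 with it. Every treated array lay above every control array in both cell types. The mean change was 1.34 in CD4 and 0.90 in CD8 T cells.

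The difference of the Cpt1a effects was 0.43 ± 0.33 (SE, 3 arrays a group), with a 95% interval of -0.28 to 1.15, an unadjusted p of 0.211 and an adjusted p of 0.953 in limma. By number it was 0.04, 0.64 and 0.63, positive in 3 of 3 but near 0 in number 1. An exact two-sided permutation over the 400 relabellings of culture within both cell types gave p = 0.61, where the smallest p possible was 0.005. Its null is no effect in either cell type, which the array values of Cpt1a break, so it does not bear on the difference between the effects. Without CD8 linoleic acid replicate 3, in which Cpt1a was lowest among the treated arrays, the difference was 0.16, and without CD8 linoleic acid replicate 1 it was 0.67. The interval of the model holds an equal response as well as a smaller or a larger one in CD4 T cells.

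**Figure D1:**
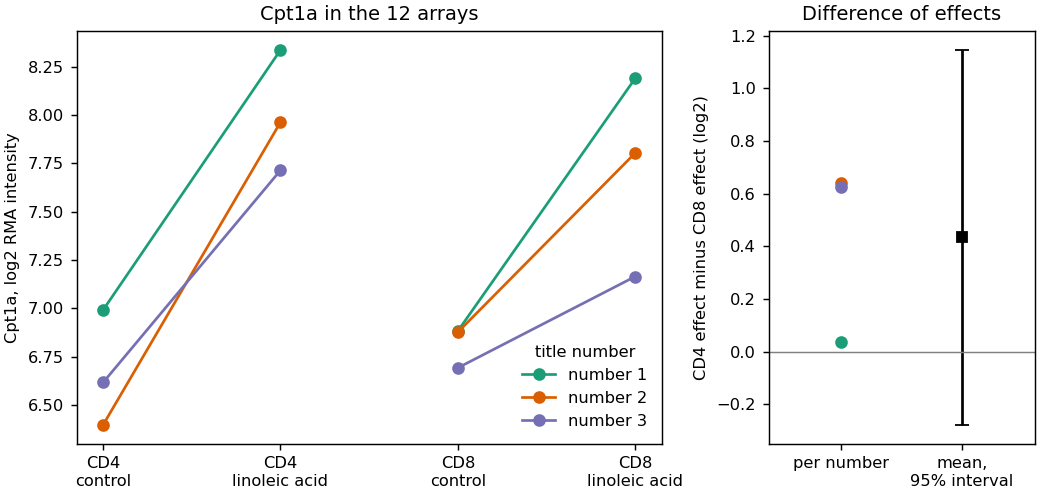
Left, log2 RMA intensity of Cpt1a in the 12 arrays, with lines joining control and linoleic acid arrays of the same title number. Right, the difference of the CD4 and CD8 effects (log2) for each number as points, and their mean with its 95% interval from limma, which runs from -0.28 to 1.15; number 1 sits at 0.04 and numbers 2 and 3 at 0.64 and 0.63.

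The other members of the carnitine shuttle and of mitochondrial beta-oxidation did not share a side. Of 23 such genes tested, 9 had a difference above 0 and 14 below, none passed, and the median was -0.05 against 0.04 over all genes. With Cpt1a included the median of the 24 was -0.04, turning to 0.02 with arrays centred on their medians. Cpt2, the inner-membrane partner of Cpt1a, had a difference of 0.22 ± 0.17. Slc22a5, the carnitine importer of the plasma membrane, had -0.46 ± 0.20, with changes of -0.16 in CD4 and 0.29 in CD8 T cells. Of 12 PPAR target genes tested, Cpt1a among them, 6 lay to each side with a median of 0.01, or -0.11 after quantile normalization. Pdk4, which restrains pyruvate oxidation, had -0.38 ± 0.26 and Angptl4, an inhibitor of lipoprotein lipase, -0.24 ± 0.17, both at low levels. Tmem135, from the same list, had 0.30 ± 0.22 at a mean level of 6.65.

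**Figure D2:**
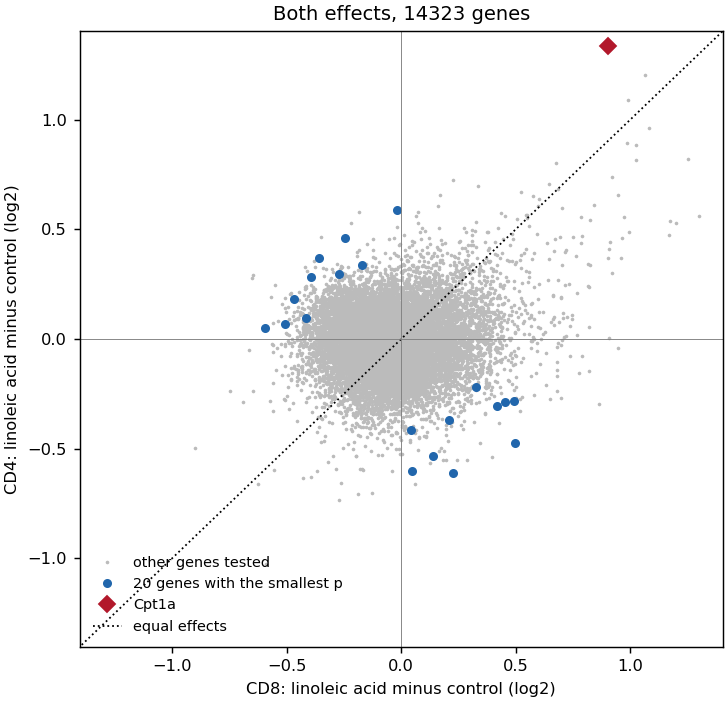
Log2 change with linoleic acid in CD8 T cells (x axis) against CD4 T cells (y axis) for the 14323 genes tested, each as the difference of 2 group means of 3 arrays; the dotted line marks equal effects. Cpt1a lies above that line by 0.43, and the 20 named genes, the 10 with the smallest p to each side after predicted and microRNA genes were passed over, none of which passed the test, lie at the upper left and the lower right.

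Across genes, the mean CD4 and CD8 effects had a Pearson correlation of 0.12 over the 14323 genes, a description over genes that share the same 12 arrays and are not independent. Number by number it was 0.19, -0.16 and 0.16. The differences of effects correlated little between the numbers, at -0.05 for numbers 1 and 2, 0.03 for 1 and 3, and 0.25 for 2 and 3. A difference of a single sign in all 3 numbers was found for 4347 genes (30.3%), above 0 for 2779 (19.4%) and below 0 for 1568 (10.9%). Opposite effects in every number were rarer: 525 genes (3.67%) were higher with linoleic acid in CD4 and lower in CD8 T cells each time, and 148 (1.03%) the reverse.

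On each side the 10 genes with the smallest p are given by their values, since none was called. Predicted and microRNA genes were passed over in this choice, 4 with the CD4 effect above the CD8 effect and 3 with it below. All 20 had a difference of a single sign in the 3 numbers and mean effects of opposite sign in the 2 cell types, which their choice by p favours. Of the 10 with the CD4 effect above the CD8 effect, 3 had a mean level below the 95th percentile of the chemosensory receptors, log2 5.10, and so did 3 of the 10 below.

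**Figure D3:**
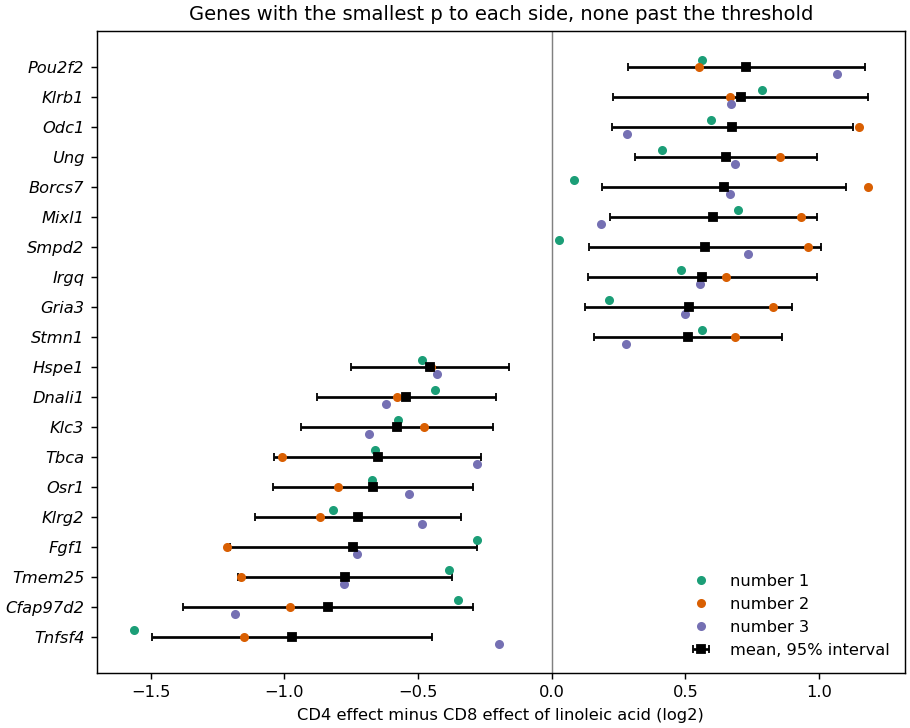
CD4 effect minus CD8 effect (log2) for the 10 genes with the smallest unadjusted p on each side, predicted and microRNA genes passed over. Coloured points are the title numbers, squares the mean and bars its 95% interval from limma; the means run from -0.97 (Tnfsf4) to 0.73 (Pou2f2), and no gene had an adjusted p below 0.953.

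Ung encodes the uracil-DNA glycosylase that starts base excision repair of uracil. Its log2 intensity was 4.97, 4.97 and 5.11 in CD4 control arrays and 5.10, 5.31 and 5.17 in CD4 linoleic acid arrays, against 5.41, 5.57 and 5.56 in CD8 control and 5.13, 5.06 and 4.93 in CD8 linoleic acid arrays. The CD8 groups did not overlap and the treated one was lower, while the CD4 groups overlapped. The difference of effects was 0.65 ± 0.16, with a 95% interval of 0.31 to 0.99 and an unadjusted p of 0.00112 in limma (adjusted 0.953).

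Odc1 encodes ornithine decarboxylase, the rate-limiting enzyme of polyamine synthesis. It stood at 8.22, 8.10 and 8.11 in CD4 control arrays and at 8.56, 8.47 and 8.26 in CD4 linoleic acid arrays. In CD8 T cells it stood at 8.06, 8.23 and 8.19 without and at 7.80, 7.44 and 8.05 with linoleic acid. Neither pair of groups overlapped, with the treated arrays higher in CD4 and lower in CD8 T cells, though the highest treated CD8 array, at 8.05, came close to the lowest control, at 8.06. The difference was 0.68 ± 0.21, and by number 0.59, 1.15 and 0.28.

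Pou2f2 encodes the octamer-binding factor Oct-2, best known from B cells. Its values were 5.95, 6.06 and 5.62 in CD4 control arrays, 6.18, 6.29 and 6.27 in CD4 linoleic acid, 6.44, 6.39 and 6.15 in CD8 control and 6.12, 6.07 and 5.73 in CD8 linoleic acid arrays. Treated arrays lay above the controls in CD4 and below them in CD8 T cells without overlap, and the difference was 0.73 ± 0.21. The mean level of the B cell markers had differences of effects of 0.06, -0.01 and 0.19 by number, where Pou2f2 had 0.56, 0.55 and 1.07. The part of B cell transcripts in the Pou2f2 difference was not tested.

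The other 7 genes on this side had differences of 0.51 to 0.71. Stmn1, which encodes the microtubule-destabilizing protein stathmin, had 0.51 ± 0.16, with changes of 0.34 in CD4 and -0.17 in CD8 T cells. Smpd2, a neutral sphingomyelinase, had 0.57 ± 0.20 from changes of 0.07 and -0.50. Gria3, a glutamate receptor subunit, had 0.51 ± 0.18 and Irgq, of the immunity-related GTPase family, 0.56 ± 0.20. Klrb1, a lectin-like receptor of NK cells, had 0.71 ± 0.22, Mixl1, a homeobox gene, 0.61 ± 0.18, and Borcs7, a subunit of the complex that positions lysosomes, 0.64 ± 0.21. These last 3 had mean levels below the 95th percentile of the chemosensory receptors.

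On the other side, Hspe1 had the smallest standard error of the 20 genes. It encodes the co-chaperonin that works with HSP60 in mitochondria. Its log2 intensity was 6.73, 6.76 and 6.72 in CD4 control arrays and 6.35, 6.32 and 6.31 in CD4 linoleic acid arrays, and 6.61, 6.67 and 6.60 in CD8 control and 6.71, 6.68 and 6.62 in CD8 linoleic acid arrays. The treated CD4 arrays lay below all others, and the CD8 groups overlapped. The difference was -0.46 ± 0.14, by number -0.48, -0.45 and -0.43, with an unadjusted p of 0.00538 in limma (adjusted 0.953).

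Tbca encodes a folding cofactor of beta-tubulin. It stood at 7.15, 7.24 and 7.30 in CD4 control arrays and at 6.69, 6.49 and 6.71 in CD4 linoleic acid arrays, without overlap. The CD8 groups overlapped, at 6.85, 6.87 and 7.07 without and 7.05, 7.12 and 6.76 with linoleic acid. The difference was -0.65 ± 0.18.

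Klrg2, a lectin-like receptor gene, was 5.91, 5.89 and 5.55 in CD4 control arrays, 5.43, 5.48 and 5.52 in CD4 linoleic acid, 5.35, 5.39 and 5.50 in CD8 control and 5.68, 5.85 and 5.96 in CD8 linoleic acid arrays. Treated arrays were lower in CD4 and higher in CD8 T cells without overlap in either, and the difference was -0.72 ± 0.18. Tnfsf4, the ligand of the costimulatory receptor OX40, had the most negative difference of these 10, -0.97 ± 0.24, at a level within the background gauge. It stood at 4.79, 4.94 and 4.58 in CD4 control arrays, 3.89, 4.37 and 4.63 in CD4 linoleic acid, 3.86, 3.76 and 4.08 in CD8 control and 4.52, 4.34 and 4.32 in CD8 linoleic acid arrays. Its CD8 groups did not overlap and its CD4 groups did; by number the difference was -1.56, -1.15 and -0.20.

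The remaining 6 had differences of -0.84 to -0.54. Osr1, a zinc finger factor of kidney and heart development, had -0.67 ± 0.17, with CD4 arrays of 5.58, 5.50 and 5.39 without and 5.06, 4.77 and 5.05 with linoleic acid. Fgf1, a fibroblast growth factor, had -0.74 ± 0.22, Klc3, a kinesin light chain, -0.58 ± 0.17 and Dnali1, an axonemal dynein light chain, -0.54 ± 0.16. Tmem25 had -0.77 ± 0.19 and Cfap97d2 -0.84 ± 0.25, both at a level within the background gauge.

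Gene groups were described by counts and medians, beside 57.1% of all tested genes above 0 and the all-gene median of 0.04. None of the 745 tested members of the lists passed the test. The share above 0 also depends on level: in 5 equal groups of genes from the lowest to the highest mean level it was 35.0%, 41.5%, 62.0%, 74.8% and 72.2%. Of the 34 lists, 19 had a median whose sign turned under centring, quantile normalization or cyclic loess, and 15 kept it under these scalings. The groups with the highest medians concerned sterol efflux, the PPAR and RXR receptors with their coactivators, and T cell state, and those with the lowest concerned ATP synthase, ribosomal proteins and respiratory complex I.

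**Figure D4:**
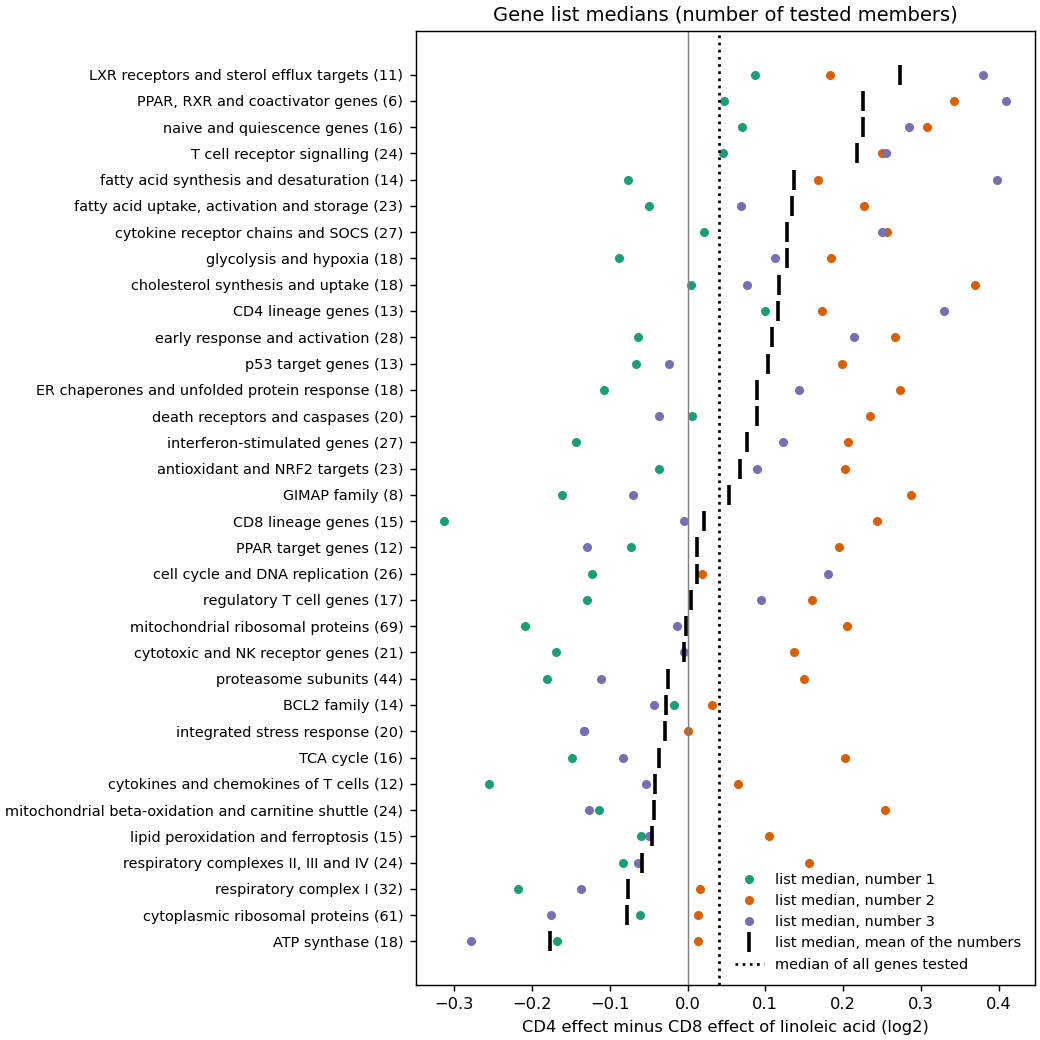
Median CD4 effect minus CD8 effect (log2) over the tested members of each of 34 gene lists. Coloured points are the medians in numbers 1, 2 and 3, black bars the median of the mean difference, and the dotted line the median of all genes tested, 0.04; list medians run from -0.18 for ATP synthase to 0.27 for LXR receptors and targets, and in 34 of 34 lists number 2 lies above number 1.

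Among lipid genes, those of sterol handling lay mostly above 0. So did 74.8% of all genes in the level group that holds the median levels of the LXR, cholesterol and fatty acid synthesis lists. Of 11 LXR receptors and sterol efflux targets, 10 were above 0, with a median of 0.27 and medians by number of 0.09, 0.18 and 0.38. Abcg1 and Abca1, transporters that export cholesterol, had 0.47 ± 0.29 and 0.32 ± 0.21, and Mylip, the ligase that degrades the LDL receptor, 0.31 ± 0.21. Of 18 cholesterol synthesis and uptake genes, 17 were above 0 with a median of 0.12. Srebf2, the master regulator of this pathway, had 0.52 ± 0.32, Pmvk 0.34 ± 0.16 and Dhcr7, which makes cholesterol in the last step, 0.32 ± 0.22. Of 14 fatty acid synthesis genes, 12 were above 0 with a median of 0.14, and Fasn, the fatty acid synthase, had 0.51 ± 0.29. Of 23 genes of fatty acid uptake, activation and storage, 15 (65.2%) were above 0 with a median of 0.13. That share is near the 62.0% of the genes in the level group that holds their median level. Of 6 tested PPAR, RXR and coactivator genes, 5 were above 0 with a median of 0.23.

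Single arrays weighed on these values. Fasn was 7.40, 7.57 and 7.38 in CD4 control arrays, 7.60, 7.75 and 7.48 in CD4 linoleic acid, 7.58, 7.74 and 7.61 in CD8 control, and 7.64, 7.58 and 6.67 in CD8 linoleic acid arrays. Abcg1 was 7.36, 7.33 and 7.23 in CD4 control arrays, 7.45, 7.27 and 7.16 in CD4 linoleic acid, 7.44, 7.57 and 7.38 in CD8 control, and 7.47, 7.07 and 6.38 in CD8 linoleic acid arrays. In both genes CD8 linoleic acid replicate 3 was the lowest of the 12 arrays, and the first array of that group was close to its control. Without replicate 3 of CD8 linoleic acid the differences were 0.20 for Srebf2, 0.18 for Abcg1 and 0.19 for Fasn, and the list medians 0.12 for LXR targets, 0.09 for cholesterol genes, 0.05 for fatty acid synthesis, 0.07 for fatty acid uptake and 0.13 for the PPAR, RXR and coactivator genes. Other arrays weighed more on some lists, the lowest medians being 0.03 for cholesterol genes without replicate 2 of all groups and 0.04 for fatty acid uptake without CD4 control replicate 2. Quantile normalization also brought the cholesterol genes to 0.03.

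Mitochondrial genes lay on both sides of 0. Most genes at the median levels of the ATP synthase, respiratory complex and TCA cycle lists were above 0, 74.8% or 72.2% by level group. Of 18 ATP synthase genes, 14 were below 0, with a median of -0.18 and medians by number of -0.17, 0.01 and -0.28. Atp5md, a small membrane subunit, was 9.77, 9.80 and 9.76 in CD4 control arrays and 9.40, 9.27 and 9.35 in CD4 linoleic acid arrays, against 9.57, 9.53 and 9.71 in CD8 control and 9.53, 9.35 and 9.82 in CD8 linoleic acid arrays. In CD4 T cells the treated arrays lay below the controls without overlap, the CD8 groups overlapped, and the difference was -0.40 ± 0.18. Atp5l had -0.43 ± 0.22. Atp5g1 had -0.53 ± 0.25, but by number -1.12, -0.35 and -0.11. Its highest array was CD4 control replicate 1, at 5.96, without which the difference was -0.29; it was -0.23 without replicate 1 of all groups.

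Of 32 complex I genes, 22 were below 0 with a median of -0.08. Ndufa13 and Ndufc2 each had -0.36 ± 0.20, while Ndufb11 had 0.29 ± 0.17. Of 24 genes of complexes II, III and IV, 13 were below 0 with a median of -0.06, which centring brought to 0.00. Ndufa4, now placed in complex IV, was 8.83, 8.87 and 9.35 in CD4 control arrays and 8.55, 8.36 and 8.57 in CD4 linoleic acid arrays, and 8.91, 8.73 and 9.13 in CD8 control and 8.91, 8.80 and 9.04 in CD8 linoleic acid arrays. The treated CD4 arrays were the lower ones, the CD8 groups overlapped, and the difference was -0.52 ± 0.22. The core proteins of complex III parted, with Uqcrc1 at 0.38 ± 0.18 and Uqcrc2 at -0.38 ± 0.19. Of 61 cytoplasmic ribosomal protein genes, 44 were below 0 with a median of -0.08, and the 69 mitochondrial ones had 33 above and 36 below. Of 16 TCA cycle genes 9 were below 0 with a median of -0.04 (0.03 after centring). Of 18 glycolysis and hypoxia genes 14 (77.8%) were above with a median of 0.13, near the 74.8% of genes in their level group.

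Stress and death genes had medians of -0.05 to 0.10, against 0.04 for all genes. Of 23 antioxidant and NRF2 target genes, 12 were above 0 with a median of 0.07, or -0.04 after quantile normalization. Prdx2 and Prdx3, peroxiredoxins of cytosol and mitochondria, had -0.36 ± 0.17 and -0.40 ± 0.22, while Nfe2l2, the NRF2 factor itself, had 0.27 ± 0.18. Medians were -0.05 over 15 ferroptosis genes, -0.03 over 20 genes of the integrated stress response, 0.09 over 18 ER chaperone genes, -0.03 over 44 proteasome genes, 0.10 over 13 p53 targets, 0.09 over 20 death receptor and caspase genes and 0.01 over 26 cell cycle genes. Of these, only the ER and death receptor medians kept their sign under the 3 scalings. The BCL2 family, which sets the threshold of mitochondrial apoptosis, had 7 members on each side of 0. Its survival gene Bcl2 had 0.53 ± 0.28, its effector Bak1 0.39 ± 0.19 and the BH3-only gene Pmaip1 -0.40 ± 0.22. Tradd, an adaptor of death receptors, had 0.53 ± 0.22. Of 27 interferon-stimulated genes, 16 were above 0 with a median of 0.08 (-0.06 after quantile normalization), among them Ifih1, an RNA sensor, at 0.42 ± 0.17.

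Genes of T cell state and signalling lay mostly above 0. So did 72.2% of all genes in the highest level group, which holds the median levels of the naive, receptor signalling and cytokine receptor lists. Above 0 in all 3 numbers were 19.4% of all tested genes, a share not taken by level. Of 16 naive and quiescence genes, 14 were above 0 with a median of 0.23, and 11 were above 0 in all 3 numbers. Tob1, an antiproliferative gene of resting T cells, was 7.67, 7.44 and 7.39 in CD4 control arrays, 8.11, 7.61 and 7.35 in CD4 linoleic acid, 7.25, 7.24 and 7.11 in CD8 control, and 7.19, 6.65 and 6.07 in CD8 linoleic acid arrays. Both pairs of groups overlapped, and the difference was 0.76 ± 0.34, or 0.47 without CD8 linoleic acid replicate 3. Bach2, a repressor of effector genes, and Satb1, a chromatin organizer, each had 0.46 ± 0.23.

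Of 24 T cell receptor signalling genes, 20 were above 0 with a median of 0.22, and 14 were above 0 in all 3 numbers. Nfatc1, a calcium-dependent factor, had 0.66 ± 0.37, Zap70, the kinase at the receptor's zeta chain, 0.33 ± 0.20 and Vav1, an exchange factor, 0.28 ± 0.17. Of 27 cytokine receptor and SOCS genes, 23 were above 0 with a median of 0.13, Il6ra having 0.56 ± 0.33 and Socs2 0.55 ± 0.27. Of 28 early response genes, 20 (71.4%) were above 0 with a median of 0.11. That share is below the 74.8% of the genes in the level group that holds their median level. Ctla4, with the smallest p of this list, had -0.35 ± 0.19, while Egr2 had 0.37 ± 0.22 and Myc 0.34 ± 0.21. Without CD8 linoleic acid replicate 3 the medians were 0.11 for naive genes, 0.09 for receptor signalling, 0.07 for cytokine receptors and 0.04 for early response genes.

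Lineage and effector lists were close to 0 or split. Of 13 CD4 lineage genes 8 were above 0 with a median of 0.12 (-0.00 after cyclic loess), and of 15 CD8 lineage genes 8 were above with a median of 0.02. Of 17 regulatory T cell genes 9 were above 0 with a median of 0.00, and of 21 cytotoxic and NK receptor genes 10 with a median of -0.01. Of 12 tested cytokines and chemokines, 9 were below 0, and of 8 GIMAP genes 5 were above. Eomes, a factor of memory and cytotoxic cells, had 0.62 ± 0.28, from changes of 0.08 in CD4 and -0.54 in CD8 T cells, where its level was higher.

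The size and sign of the difference moved with the level of a gene. With the tested genes cut into 5 equal groups from the lowest to the highest mean level, the median difference was -0.08, -0.05, 0.06, 0.13 and 0.12. Numbers 2 and 3 carried this order, number 2 with -0.13, -0.05, 0.14, 0.26 and 0.26 and number 3 with -0.13, -0.09, 0.09, 0.17 and 0.14, while number 1 had 0.01, 0.01, -0.02, -0.05 and -0.03. The array means of the chemosensory receptors had differences of effects of -0.03, -0.27 and -0.03 by number. Each gene was also set against the median of its level group. The naive genes then kept a median of 0.11, the T cell receptor genes 0.10 and the LXR targets 0.19. Cholesterol genes were at 0.03, fatty acid synthesis genes at 0.02 and glycolysis genes at 0.02. ATP synthase genes were at -0.25, complex I at -0.19, complexes II, III and IV at -0.18 and TCA cycle genes at -0.13. Cytoplasmic ribosomal protein genes were at -0.17 and mitochondrial ones at -0.08. Ferroptosis genes were at -0.16, proteasome genes at -0.14 and the BCL2 family at -0.10, the other stress, death and interferon lists at -0.07 to 0.02. The median difference also moved with the genomic span of a gene, known for 14307 tested genes from the RefSeq gene table (GRCm38.p6). In 5 equal groups from the shortest to the longest span it was -0.04, 0.01, 0.05, 0.07 and 0.12. Number 2 had -0.04, 0.10, 0.16, 0.19 and 0.22 and number 3 -0.07, -0.01, 0.03, 0.07 and 0.17, while number 1 had -0.03, -0.03, -0.04, -0.03 and 0.00. The part of gene level and span in the list medians was not tested further.

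**Figure D5:**
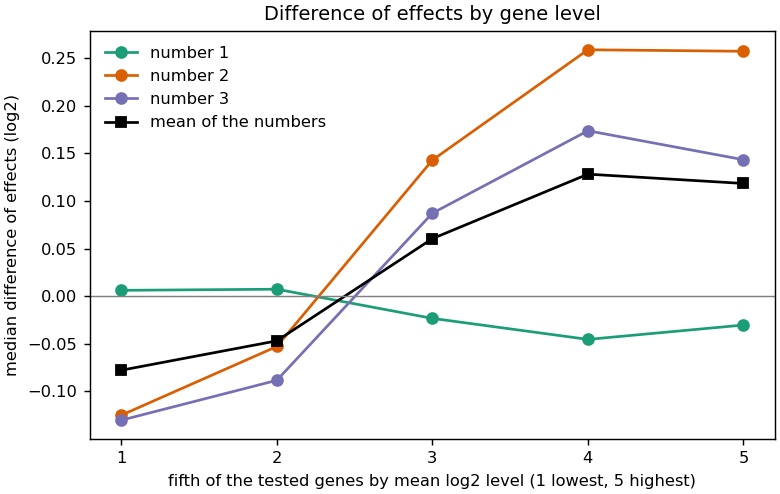
Median CD4 effect minus CD8 effect (log2) in 5 equal groups of the tested genes ordered by mean log2 level. Coloured lines are numbers 1 to 3 and the black line is the mean of the numbers, which runs from -0.08 in the lowest group to 0.12 in the highest; number 1 runs flat, from 0.01 to -0.03.

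Markers of other cells also had differences of effects. By number, mean levels of 16 myeloid markers differed by -0.00, -0.08 and -0.23, those of 7 dendritic cell markers by -0.02, -0.23 and -0.15, those of 6 NK cell markers by -0.08, 0.27 and -0.09, and those of 5 platelet markers by -0.20, -0.06 and -0.08. All 5 tested NK cell markers were above 0, with medians by number of 0.13, 0.18 and 0.18. Klre1, below the level needed for testing, entered only the mean of the 6. The 4 measured T cell markers had -0.08, 0.11 and -0.03, and of 5 erythroid markers none had a probe set of its own. Of 15 tested myeloid markers 6 (40%) were above 0 and 9 below, from -0.55 ± 0.18 for Fcgr3, the lowest, to 0.26. Of 13 B cell markers 9 (69.2%) were above. In the level groups that hold the median levels of these 2 lists, 62.0% and 74.8% of all genes were above 0. The part of these cells in the differences was not tested, and in sorted bulk RNA fewer cells of a type and less RNA per cell cannot be told apart.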

How the data were processed

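RNA from T cells sorted as CD4+ or CD8+ was hybridized to 12 one-colour Affymetrix MoGene-2_0-st arrays. The authors deposited log2 intensities made with RMA (background correction, quantile normalization and probe summary), per the submitters' processing notes; for software, version and genome build the entry reads: not given in the sources used here. The deposited values were used as they stand.

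Of 41345 probe sets, 23521 carried 1 symbol in the platform annotation, 1814 several and 16010 none; 23328 were found in the RefSeq gene table by Entrez identifier, and 0 symbols changed. The brightest probe set stood for each of 22180 genes, and 14323 with a mean of at least the 40th percentile of probe sets, log2 4.28, were tested. The difference of effects was a contrast in limma 3.58.1 (R 4.3.3; lmFit and eBayes, two-sided) on 12 arrays, without a block, with 8 residual and 5.67 prior degrees of freedom and Benjamini-Hochberg adjustment at 0.05. The script was tested on simulated data. For the model without a block the simulated number effect was taken out first, so that check does not cover spread shared by a number. Values after ± are standard errors from this model.

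Named were Cpt1a, the 10 genes with the smallest p on each side, in each list up to 3 genes with the smallest p, genes past the threshold under a blocked alternative, and Cd4, Cd8a and Cd8b1. Otherwise small RNAs, chemosensory receptors, receptor gene segments and predicted genes were counted, not named. The 34 lists and 7 marker lists held 861 genes, 796 measured and 745 tested. Members, lists and rules were chosen with earlier results of these data known, and no list was tested. Alternatives covered the replicate block, filters, probe sets, scaling, variance model, array weights and left-out arrays. The labels do not say that replicates came from separate animals, so p-values measure only the spread between samples, and it may be technical; the number of arrays limits the precision.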

Additional observations from a re-analysis of the deposited data

Results flagged for a closer look

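The mean of the 16 naive and quiescence genes moved one way in every number of CD4 T cells and the other way in every number of CD8 T cells. The list was picked for this sign pattern from 41 lists, marker lists and the background gauge among them. The pattern that picked it is not evidence of a difference. With linoleic acid the list mean changed by 0.06, 0.20 and 0.06 in CD4 T cells and by -0.03, -0.12 and -0.29 in CD8 T cells, a difference of effects of 0.25. The difference was not tested. The smallest changes, 0.06 and -0.03, lie in number 1, and these genes are among the more highly expressed ones, where the difference of effects of all genes also lay above 0.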

How the results depend on the processing

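The count of genes past the threshold was 0 in each of the 27 alternatives except one, and the difference for Cpt1a stayed positive and uncalled in all 27, from 0.28 (quantile normalization) to 0.50 (arrays centred on their medians) and from 0.16 to 0.67 with an array or number left out. Of 3329 values of named genes under alternatives, 3320 kept their sign and side of the threshold, 7 crossed it and 2 reversed, Steap3 (-0.69 to 0.065 with arrays or numbers left out) and Cxcl10 (-1.06 to 0.083), at 0.0646 and 0.0829 without replicate 3; the cause was not tested. Of 1107 list medians, 62 moved by 1 SD of the numbers or more. Centring moved the all-gene median to 0.10, and the ER chaperone and death receptor medians were -0.01 and -0.02 without replicate 2.

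Same-numbered arrays deviated together in 17 of 18 pairs (correlations -0.01 to 0.61), and 11 of 12 arrays were closest to their own number, a hint from the data that the labels do not state. For Cpt1a the unadjusted p in limma was 0.0638 with the replicate block, 0.0389 with it within culture and 0.0307 as per-number differences (adjusted 0.607, 0.572 and 0.522). With the replicate number as a block 0 genes passed (smallest adjusted p 0.600) while 1189 (8.3%) reached p under 0.05 unadjusted; within culture the block gave 0 and 1243 (8.68%). With the replicate block taken as per-number differences 7 (0.0489%) passed in limma: Dcpp2 (-1.16), Btbd35f12 (-0.99), Olfr988 (-0.97), Gm5591 (-0.97), Tnfsf4 (-0.97), Gal3st2b (-0.93) and Gm8225 (0.94), 3 of them within the background gauge and Tnfsf4 with an adjusted p of 0.0412, from 2 residual and 54.6 prior degrees of freedom, and 1266 (8.84%) reached p under 0.05 unadjusted. After cyclic loess, chosen after seeing the data, per-number differences gave 0 and 897.

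Unadjusted, the count at p under 0.05 was 336 in the reported model, 681 without a filter, 193 above the background gauge and 952 with array weights. It was 230 to 1273 with an array left out (1273 without CD8 linoleic acid replicate 1, 612 without CD4 control replicate 1) and 941, 108 and 265 without replicate 1, 2 and 3; the cause was not tested.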

Other observations

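Probe sets that stand for no named gene gave a similar picture. Of 10484 at or above the same level, 0 had an adjusted p under 0.05 in limma (smallest 0.997), and 330 (3.15%) had an unadjusted p under 0.05.

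Genes of polyamine turnover, picked out after their values were seen, lay on both sides. Odc1, which makes putrescine, had a difference of effects of 0.68 ± 0.21, and Sat1, the acetyltransferase that starts polyamine breakdown, had -0.47 ± 0.24, from changes of -0.36 in CD4 and 0.11 in CD8 T cells. By number Sat1 had -0.30, 0.00 and -1.11, and its difference was -0.28 without CD4 control replicate 3 and -0.15 without replicate 3 of all groups. Neither passed the test over all genes.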
